A study of Mus musculus with 4 samples.

Results

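The genes described here are the Krüppel-like factor genes Klf2, Klf3, Klf4, Klf6 and Klf13, the sphingosine 1-phosphate (S1P) receptor genes S1pr1, S1pr4 and S1pr5, and the chemokine receptor gene Ccr7. They were taken by symbol as a named list and are 9 of the 30731 genes counted in all 4 libraries. All 9 passed the filter on low counts, as did 25283 genes in total. RNA-seq had been run on mouse cells of the group 1, group 2 and group 3 innate lymphoid lineages to accompany chromatin contact maps (Hi-C). MNK-3, with 2 libraries that are also titled wild-type, is a group 3-like cell line that began as fetal day 15 thymocytes of NIH-Swiss mice. It was grown in IL-7 and IL-15 at 10 ng/ml, so it stands for 1 line and not for group 3 cells of a tissue. The single ILC2 library came from wild-type C57BL/6 bone marrow cells, pooled from mice of 8 to 12 weeks and grown out at 10 ng/ml each of IL-25, IL-33, IL-2 and IL-7. The single NK library came from wild-type C57BL/6 spleen cells, also pooled from mice of 8 to 12 weeks, with no culture named in the labels. Cell type therefore cannot be told apart from tissue and culture, nor, for MNK-3, from mouse strain and from the gene set used in counting.

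KLF2 is a zinc finger factor that keeps T cells quiescent and able to circulate, and it switches on S1pr1. Lymphocytes leave tissues toward the high S1P of blood and lymph through S1P receptors: S1PR1 serves T and B cells, and S1PR5 serves the exit of NK cells from marrow and lymph nodes. CCR7 guides cells into and within lymph nodes along the chemokines CCL19 and CCL21, and tissue-resident lymphocytes are known for low Klf2, S1pr1 and Ccr7.

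Reads assigned to genes shared by all tables numbered 25617762 and 15177345 in MNK-3 replicates 1 and 2, 9298162 in ILC2 and 4637812 in NK. MNK-3 replicate 1 stood apart, with 75.8% of its counted reads in no gene against 24.3% in replicate 2, 23.1% in ILC2 and 47.1% in NK, and with 95.6% of the shared genes detected against 69.6% to 76.0% in the other libraries. The levels of its genes are therefore printed separately from those of replicate 2. By summed CPM (counts scaled to a common library total), each marker list was highest in its labelled cells. Group 3 markers reached 1346 CPM in MNK-3 replicate 1, 3210 CPM in replicate 2 and at most 268 CPM elsewhere. Kit alone gave 752 CPM of the first sum and 1802 CPM of the second. Group 2 markers summed to 6705 CPM in ILC2 and at most 127 CPM elsewhere. NK markers summed to 6737 CPM in NK and at most 81.4 CPM elsewhere. Not every marker followed its sum. Il17rb, of the group 2 list, was at 4.87 CPM in ILC2, between MNK-3 replicate 2 (2.94 CPM) and replicate 1 (18.6 CPM). Il22, of the group 3 list, was at 5.67 CPM in ILC2, beside 5.57 CPM for MNK-3 replicate 1 and 10.3 CPM for replicate 2. The protocol mentions technical replicates, and nothing names separate cultures, so p-values measure only the spread between the MNK-3 libraries, which may be technical. The lone ILC2 and NK libraries were assumed to vary like that pair.

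The promoter sequences of Klf2, S1pr5 and Klf4 are shown for reference (RefSeq starts, build GRCm38.p6, 5′ to 3′ on the strand of each gene). Klf2 and S1pr5 were the members with the largest called differences. Klf4 was the only Klf member whose own highest level was in MNK-3. Capitals mark every match to CACCC on either strand (GGGTG on the other), the core of the box that Krüppel-like factors bind, and to the palindromic MEF2-type motif, CTA and TAG with any 4 bases between them. The windows are chr8:72318812-72319032 on the plus strand for Klf2, chr9:21248444-21248693 on the minus strand for S1pr5 and chr4:55532476-55532725 on the minus strand for Klf4.
Klf2: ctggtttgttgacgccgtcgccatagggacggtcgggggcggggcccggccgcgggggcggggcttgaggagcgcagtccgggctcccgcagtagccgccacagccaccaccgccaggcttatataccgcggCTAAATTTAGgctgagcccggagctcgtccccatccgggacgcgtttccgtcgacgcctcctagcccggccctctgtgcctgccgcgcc
S1pr5: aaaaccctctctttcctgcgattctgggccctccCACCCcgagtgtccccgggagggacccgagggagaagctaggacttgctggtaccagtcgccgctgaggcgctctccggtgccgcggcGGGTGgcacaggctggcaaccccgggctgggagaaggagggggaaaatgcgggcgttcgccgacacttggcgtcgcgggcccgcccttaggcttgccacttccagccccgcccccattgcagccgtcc
Klf4: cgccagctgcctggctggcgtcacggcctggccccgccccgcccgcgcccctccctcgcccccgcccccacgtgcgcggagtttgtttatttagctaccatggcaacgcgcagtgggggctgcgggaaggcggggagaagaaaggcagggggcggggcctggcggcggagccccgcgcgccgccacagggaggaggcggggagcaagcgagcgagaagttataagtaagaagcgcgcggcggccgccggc
The Klf2 window holds CTAAATTTAG, which begins 118 bases before its RefSeq start. S1pr5 holds CACCC 216 bases and GGGTG 128 bases before its start, and Klf4 holds neither motif. The Klf2 stretch stops where the GENCODE gene model begins, 29 bases before the end of the RefSeq window, and its GGGTG, 19 bases before the RefSeq start, lies beyond that point.

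Promoters were found for 7 of the 9 members; S1pr1 and Ccr7 had no entry. Over the full 250 bases, with both strands searched, CACCC matched in 5 of the 7 (Klf2, Klf3, Klf13, S1pr4 and S1pr5) against 52.0% of 32851 mouse promoters of that length. The GC box GGGCGG matched in 6 of the 7, all but S1pr4, against 32.7% of promoters. The MEF2-type motif matched in Klf2 alone of the 7, against 3.20% of promoters. The FOXO-type GTAAACA and the T-box-type GGTGTGA matched in none of the 7, against 3.17% and 3.33% of promoters. These matches are descriptions of the letters in these windows. S1pr4 was the AT-rich exception, with 38.8% G and C, while the other 6 promoters held 64.8% to 78.4%, against a median of 52.4% over all promoters.

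Klf2 (ENSMUSG00000055148, chr8:72319033-72321656 on the plus strand, build mm10) was the member that set NK cells furthest apart from both other cell types among the Klf genes. Klf2 had 7.82 and 7.89 CPM in MNK-3 replicates 1 and 2 (7.85 ± 0.0521, SD, n = 2), 4.74 CPM in ILC2 and 546 CPM in NK. The MNK-3 libraries were nearly equal, ILC2 lay just under them, and NK was far above all 3 others. Relative to NK, Klf2 was lower in MNK-3, with a log2 fold change of -6.12 ± 1.05 (SE; limma voom, Benjamini-Hochberg adjusted p = 2.63e-05 over all genes), and by a ratio of CPM + 0.5 MNK-3 was 65.4-fold lower. In ILC2 the log2 fold change against NK was -6.83 ± 2.04, a 104-fold lower level by the same ratio, but it did not pass over all genes (limma voom adjusted p = 0.580). MNK-3 and ILC2 were separated by 0.71 ± 1.91, with a 95% interval of -3.04 to 4.46, so this fit gives no order between them. In bulk RNA, fewer expressing cells and less RNA per cell cannot be told apart for this or any other gene.

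The counts behind Klf2 were 278 and 102 reads in MNK-3, 36 in ILC2 and 2622 in NK. Exact Poisson 95% intervals, which cover counting error only, ran from 6.93 to 8.79 CPM and from 6.43 to 9.58 CPM in MNK-3, from 3.32 to 6.57 CPM in ILC2 and from 525 to 567 CPM in NK. By counting error alone, ILC2 and MNK-3 replicate 2 overlapped and ILC2 lay under replicate 1. The MNK-3 to NK log2 ratio of Klf2 was -6.02 without replicate 1 and -6.04 without replicate 2. Ranked by that ratio among 10768 genes with at least 10 CPM in either cell type, Klf2 was the 48th lowest in MNK-3, and among 9977 such genes it was the 50th lowest in ILC2 against NK.

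**Figure D1:**
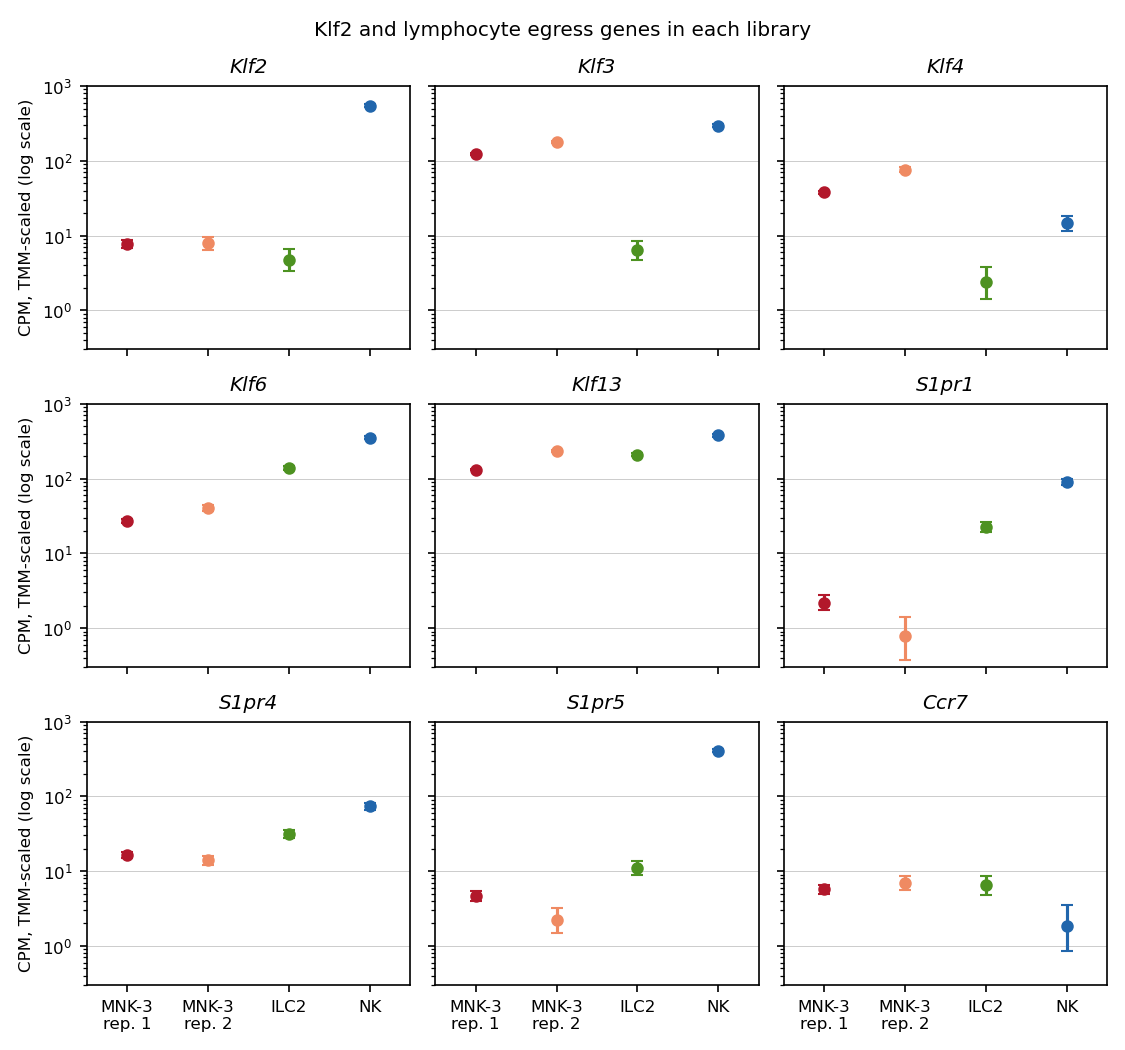
Level of each gene in CPM on a log axis (TMM-scaled) in the MNK-3, ILC2 and NK libraries, with exact Poisson 95% intervals for counting error only. NK is the highest point for 7 of the 9 genes, and it is the lowest for Ccr7.

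Klf3 (chr5:64803388-64832901, plus strand), which encodes a transcriptional repressor of the same family, was low in ILC2 and high in the other cells. Klf3 had 124 and 179 CPM in MNK-3, 6.32 CPM in ILC2 and 294 CPM in NK. On the log scale both MNK-3 libraries lay nearer to NK than to ILC2. The log2 fold change was 4.59 ± 1.68 for MNK-3 over ILC2 (limma voom adjusted p = 0.463), -0.93 ± 1.03 for MNK-3 over NK and -5.52 ± 1.74 for ILC2 over NK (limma voom adjusted p = 0.749). By size it was 22.3-fold higher in MNK-3 than in ILC2, the 142nd highest of 10872 genes, and 43.2-fold lower in ILC2 than in NK. Klf3 shares 404 bases of exon, 3.59% of its exon length, with Gm20033 on the opposite strand, which had 38 reads in ILC2 and 22 in NK and is not listed for MNK-3.

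Klf4 (chr4:55527143-55532466, minus strand), known for restraining proliferation and for its part in monocyte and stem cell programmes, was the only Klf member with its highest level in MNK-3. Klf4 had 37.7 and 76.4 CPM in MNK-3, 2.37 CPM in ILC2 and 14.6 CPM in NK. Both MNK-3 libraries exceeded the others, although they differed from each other by a log2 ratio of -1.02 (replicate 1 over replicate 2). None of its comparisons passed: the log2 fold change was 4.55 ± 2.66 for MNK-3 over ILC2, with an interval of -0.66 to 9.75, 1.96 ± 1.36 for MNK-3 over NK and -2.59 ± 2.88 for ILC2 over NK. By size Klf4 was 20.0-fold higher in MNK-3 than in ILC2 and 3.82-fold higher than in NK. The log2 ratios behind these folds were 4.33 and 1.93, and without MNK-3 replicate 2 they were 3.73 over ILC2 and 1.34 over NK.

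Klf6 (chr13:5861482-5870394, plus strand), a broadly expressed zinc finger factor induced by growth and activation signals, followed the order NK, ILC2, MNK-3. Klf6 had 26.8 and 40.3 CPM in MNK-3, 138 CPM in ILC2 and 351 CPM in NK. Both MNK-3 libraries were below ILC2, which was below NK. The log2 fold change was -3.38 ± 0.97 for MNK-3 over NK (limma voom adjusted p = 0.0765) and -2.03 ± 0.91 for MNK-3 over ILC2 (limma voom unadjusted p = 0.0258, adjusted p = 1.00). The MNK-3 to NK difference of Klf6 passed in 5 of 7 alternative fits, with adjusted p between 1.62e-14 and 1.00. With library totals as scale, Klf6 was also called lower in MNK-3 than in ILC2 (limma voom adjusted p = 0.00764) and in ILC2 than in NK (adjusted p = 0.0126).

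Klf13 (chr7:63886351-63938915, minus strand), known for its part in Ccl5 expression in T cells, varied least of the 9 genes. Klf13 had 132 and 232 CPM in MNK-3, 208 CPM in ILC2 and 377 CPM in NK. The MNK-3 pair spanned ILC2, and NK was the highest. Its levels in the highest and the lowest cell type were 2.07-fold apart. The log2 fold change was -0.17 ± 1.05 for MNK-3 over ILC2, with an interval of -2.23 to 1.89, and its sign turned with library totals as scale (0.16) and with factors from abundant genes (0.23). Against NK it was -1.03 ± 1.07 for MNK-3, a call with library totals alone of 7 alternative fits (limma voom adjusted p = 0.0410), and -0.86 ± 1.16 for ILC2.

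S1pr5 (ENSMUSG00000045087, chr9:21242912-21248443, minus strand), the S1P receptor of NK cell egress, had a 117-fold range between cell types, beside 115-fold for Klf2, the widest of the members. S1pr5 had 4.70 and 2.24 CPM in MNK-3, 11.1 CPM in ILC2 and 405 CPM in NK. NK stood far above the 3 others, and both MNK-3 libraries lay under ILC2. Relative to NK, S1pr5 was lower in MNK-3, with a log2 fold change of -6.67 ± 1.17 (limma voom adjusted p = 3.28e-05), 102-fold by size and the 32nd lowest of 10768 genes. The same ratio was -7.21 without MNK-3 replicate 1 and -6.29 without replicate 2. For ILC2 over NK the log2 fold change was -5.18 ± 1.40 (limma voom adjusted p = 0.296), 35.03-fold by size, and for MNK-3 over ILC2 it was -1.49 ± 1.38, with an interval of -4.19 to 1.22. S1pr5 shares 51 bases of exon with Gm48303 on the opposite strand, which had 21 reads in ILC2 and 14 in NK beside 84 and 1945 reads of S1pr5.

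S1pr1 (ENSMUSG00000045092, chr3:115710433-115715072, minus strand), the receptor through which T and B cells leave lymphoid organs, was the least abundant member in MNK-3. S1pr1 had 2.19 and 0.774 CPM in MNK-3, 22.7 CPM in ILC2 and 89.3 CPM in NK. The order was NK, ILC2, MNK-3 with no overlap of the counting intervals. Relative to NK, S1pr1 was lower in MNK-3, with a log2 fold change of -5.71 ± 1.51 (limma voom adjusted p = 0.0349), 45.3-fold by size and the 61st lowest of 10768 genes. That call passed in 4 of 7 alternative fits: it was lost with library totals (limma voom adjusted p = 0.505), with counts thinned to one depth (adjusted p = 0.097) and with factors from abundant genes (adjusted p = 1.00). For MNK-3 over ILC2 the log2 fold change was -3.73 ± 1.56 (limma voom unadjusted p = 0.0164, adjusted p = 0.801), 11.7-fold lower by size, and for ILC2 over NK it was -1.98 ± 1.02, with an interval of -3.97 to 0.02. The MNK-3 counts were 78 and 10 reads, and replicate 1 exceeded replicate 2 by 1.503 on the log2 scale, the widest gap between the replicates among the members. The MNK-3 to NK log2 ratio of S1pr1 was -6.14 without replicate 1 and -5.06 without replicate 2. The MNK-3 to ILC2 log2 ratio was -3.55, and it was -4.18 without replicate 1 and -3.10 without replicate 2.

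S1pr4 (chr10:81497747-81500132, minus strand), an S1P receptor found mainly on blood and lymphoid cells, followed the same order with smaller steps. S1pr4 had 16.4 and 13.9 CPM in MNK-3, 31.4 CPM in ILC2 and 74.1 CPM in NK. The MNK-3 libraries were close to each other and below both primary cells. The log2 fold change was -2.28 ± 0.83 for MNK-3 over NK (limma voom unadjusted p = 0.00608, adjusted p = 0.423), -1.04 ± 0.86 for MNK-3 over ILC2 and -1.24 ± 0.96 for ILC2 over NK. The MNK-3 to NK difference of S1pr4 passed in 1 of 7 alternative fits, after thinning to one depth (limma voom adjusted p = 0.0156).

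Ccr7 (chr11:99144196-99155077, minus strand) ran against the other receptors, with its lowest level in NK. Ccr7 had 5.71 and 7.04 CPM in MNK-3, 6.46 CPM in ILC2 and 1.87 CPM in NK. ILC2 lay between the MNK-3 libraries, and all levels were low, with 203 and 91 reads in MNK-3, 49 in ILC2 and 9 in NK. The counting interval in NK was 0.856 to 3.56 CPM, under those of the other libraries. The log2 fold change was 1.62 ± 3.36 for MNK-3 over NK and 1.72 ± 3.65 for ILC2 over NK, both far from passing (limma voom adjusted p = 1.00 each). Between MNK-3 and ILC2 it was -0.10 ± 1.65, and that sign turned with library totals (0.46) and with factors from abundant genes (0.48).

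**Figure D2:**
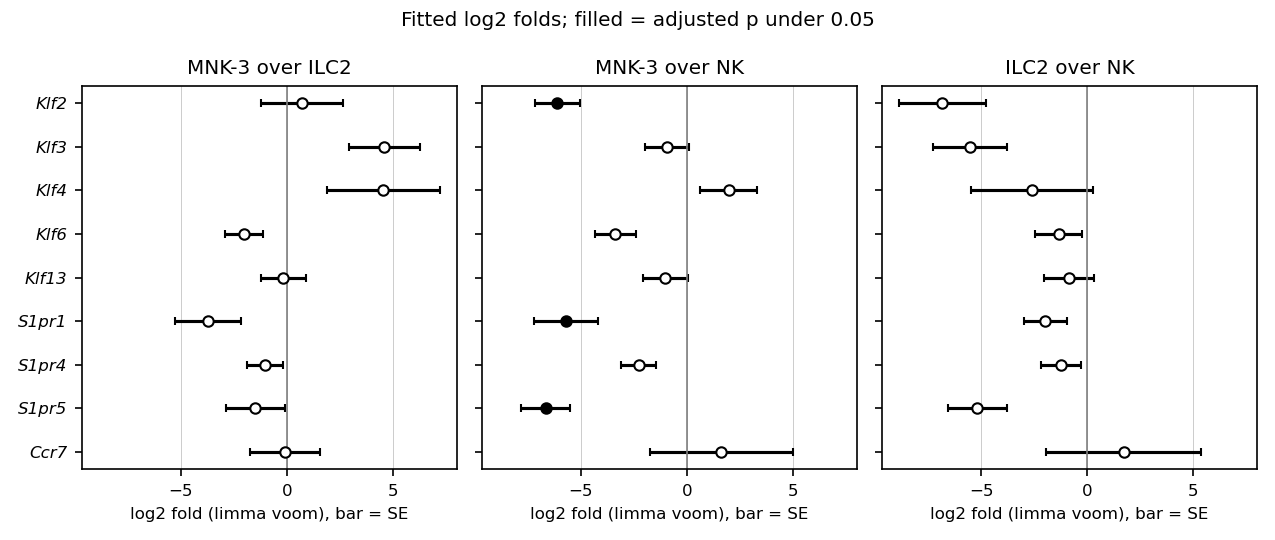
Log2 fold change (limma voom; bars are SE) of each member for MNK-3 over ILC2, MNK-3 over NK and ILC2 over NK, with filled points where the adjusted p over all genes was under 0.05. The 3 filled points are Klf2 (-6.12), S1pr1 (-5.71) and S1pr5 (-6.67) in MNK-3 over NK.

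In MNK-3 against NK, 3 of the 9 members were called lower (Klf2, S1pr1 and S1pr5) and 0 higher, where a call is a limma voom adjusted p under 0.05. Of all 25283 genes tested, 132 were called (0.522%), 130 of them lower (0.514%) and 2 higher (0.00791%). Klf2 and S1pr5 were called in 6 of 7 alternative fits, and both lost the call with factors from abundant genes (adjusted p = 1.00). By size, 2 members, Klf4 and Ccr7, exceeded their NK level by 2-fold or more, and 6 lay under it by as much. Ccr7 was under 10 CPM in every library, with 9 reads in NK. The members' median log2 ratio was -2.25. Over all genes, 42.4% differed by 2-fold or more, 7.16% lower and 35.2% higher, with a median of 0.68.

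In MNK-3 against ILC2, 0 of the 9 members were called by limma voom, 3 had an unadjusted p under 0.05 (Klf3, Klf6 and S1pr1), and limma trend called 2, Klf3 and Klf4, as higher. Of all genes, 86 were called (0.34%), 84 lower (0.332%) and 2 higher (0.00791%). Of the same 25283 genes, 905 had an unadjusted p under 0.05, and limma trend called 218 as higher and 193 as lower. By size, 2 members were at least 2-fold higher, Klf3 and Klf4, and 4 lower, Klf6, S1pr1, S1pr4 and S1pr5. Their median log2 ratio was -0.19 beside 0.78 over all genes, of which 48.7% differed by 2-fold or more, 40.1% higher and 8.55% lower. The 3 S1P receptors were thus all on the lower side in MNK-3, and the Klf genes lay on both sides.

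In ILC2 against NK, 0 of the 9 members and 0 of all genes (0.0%) were called by limma voom. An unadjusted p under 0.05 was seen for 3 members, Klf2, Klf3 and S1pr5, and for 587 genes. Those 3 were called lower by limma trend, which called 456 genes, and after thinning to one depth, which called 229. By size, 7 members lay 2-fold or more under NK and 1, Ccr7, over it, and the members' median log2 ratio was -1.95. Over all genes the median was -0.05, and 30.8% differed by 2-fold or more, 15.6% lower and 15.2% higher. The MNK-3 and ILC2 comparisons with NK share the 1 NK library, so the members' values in them are not independent.

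**Figure D3:**
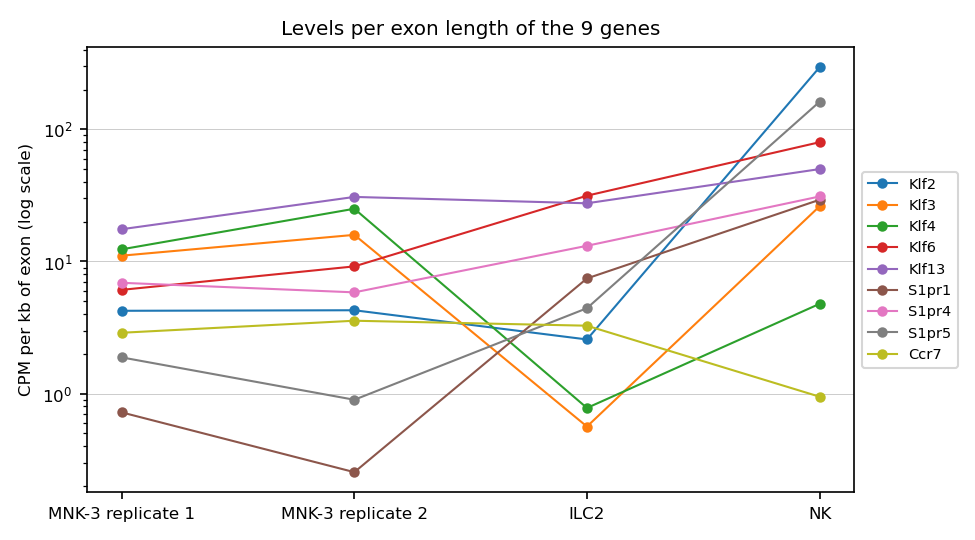
Level per exon length (CPM per kb, log axis) of the 9 genes in each library, with lines joining the points of a gene. Klf2 is the highest of the 9 in NK, Klf6 in ILC2 and Klf13 in both MNK-3 libraries.

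Per exon length, the members ranked differently in each cell type. In MNK-3, Klf13 led with 17.5 and 30.8 CPM per kb, followed by Klf4 with 12.4 and 25.1 and Klf3 with 11.1 and 15.9, and S1pr1 came last with 0.720 and 0.254 CPM per kb. In ILC2, Klf6 led with 31.5 CPM per kb and Klf13 followed with 27.6, while Klf2 had 2.57 and Klf3, the lowest, 0.562 CPM per kb. In NK, Klf2 led with 295 CPM per kb and S1pr5 followed with 162, ahead of Klf6 with 79.9 and Klf13 with 50.04, and Ccr7 came last with 0.947 CPM per kb. Klf2 was thus the leading member in NK only, and in ILC2 and MNK-3 the leading members were other Klf genes. Reads of 38 bases could fall on another gene's transcript for 4.10% of the positions of Klf3 and 2.30% of those of S1pr4, for at most 1.08% in Klf4, Klf13 and S1pr5, and for none in Klf2, Klf6, S1pr1 and Ccr7.

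MNK-3 replicate 1 also held reads over genes that the other libraries did not show. Over 2073 protein-coding genes with no counts in the other libraries, it had a median of 6.87 reads per kb of exon and a 95th percentile of 40.1. S1pr1 in that library had 25.6 reads per kb, below that percentile and above 85.4% of those genes. S1pr5 had 66.8 reads per kb, above 98.4% of them, and Ccr7 103, above 99.4%. Klf2, with 151 reads per kb, and the other members lay further above. The part of such reads in the MNK-3 levels of S1pr1 and S1pr5 was not tested, and both ratios to NK were larger without that library.

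**Figure D4:**
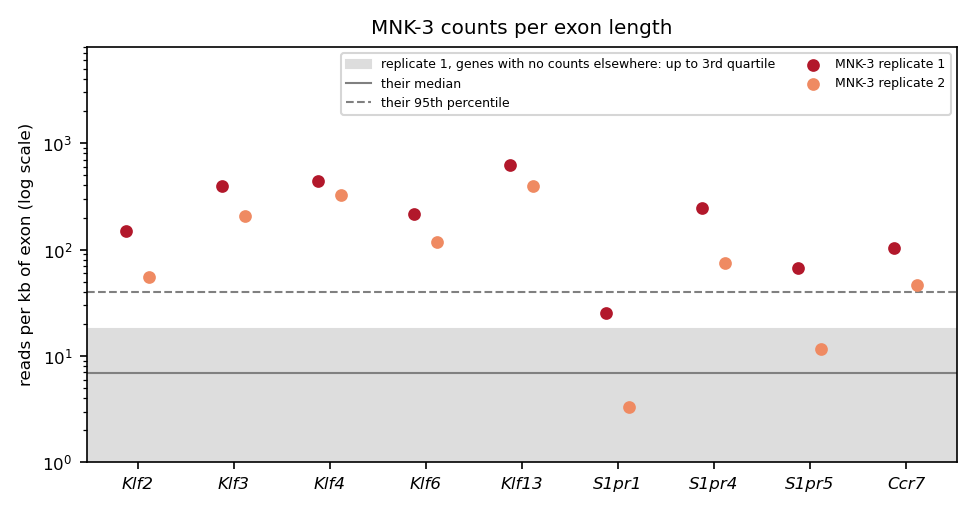
Reads per kb of exon (log axis) of the 9 genes in MNK-3 replicates 1 and 2, against the replicate 1 level of 2073 protein-coding genes with no counts in the other libraries (grey to their upper quartile, 17.9; solid line, median; dashed line, 95th percentile). S1pr1 alone lies below the dashed line in replicate 1.

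Markers of other cells that express Klf2, S1pr1 or Ccr7 summed to less than those of the labelled cells. T cell markers (9 genes) summed to 158 and 168 CPM in MNK-3, 19.9 CPM in ILC2 and 87.8 CPM in NK, where the highest, Trbc1, had 37.2 CPM and 1 of the 9 had no counts. B cell markers (6 genes) summed to 35.3 and 2.55 CPM in MNK-3, 51.1 CPM in ILC2, of which Cd79b gave 46.1, and 6.03 CPM in NK. Endothelial markers (6 genes) summed to 77.2 and 26.9 CPM in MNK-3, 263 CPM in ILC2 and 106 CPM in NK, and Pecam1, which leukocytes also express, gave 255 CPM in ILC2 and 89.7 CPM in NK. Myeloid markers (8 genes) summed to 48.6 and 4.10 CPM in MNK-3, 22.8 CPM in ILC2 and 15.2 CPM in NK. The part of such cells in the levels of Klf2, S1pr1 and Ccr7 was not tested.

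The 3 genes listed as regulators of S1pr5 were, like it, lower in MNK-3 than in NK. Tbx21 and Eomes are also among the NK markers summed above. T-bet, encoded by Tbx21, drives S1pr5 in mouse NK cells, its relative Eomes marks the NK lineage, and Zeb2 acts with T-bet in NK maturation. All 3 were called lower in MNK-3 than in NK by limma voom, against 0.514% of all genes, with a median log2 ratio of -4.41. Tbx21 had 21.0 and 21.4 CPM in MNK-3, 2.90 CPM in ILC2 and 449 CPM in NK, with a log2 fold change of -4.40 in MNK-3 over NK (limma voom adjusted p = 0.00364). Eomes had 19.8 and 34.97 CPM in MNK-3, 11.7 CPM in ILC2 and 874 CPM in NK, with -5.01 (limma voom adjusted p = 0.00208). By limma trend, Tbx21 and Eomes were also called lower in ILC2 than in NK. Zeb2 parted from them, with 22.2 and 32.5 CPM in MNK-3, 599 CPM in ILC2 and 590 CPM in NK. It was lower in MNK-3 than in ILC2 (log2 fold change -4.45 ± 1.10, limma voom adjusted p = 0.0228) as well as than in NK (-4.43, adjusted p = 0.00586), while ILC2 and NK differed by 0.02 ± 1.34. In the ILC2 library, high Zeb2 stood beside 11.1 CPM of S1pr5, and a link between these genes was not tested.

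Homing and circulation genes (12 genes) were mostly highest in NK. In MNK-3 over NK, 9 lay 2-fold or more on the lower side and 1 on the higher side, the list's median log2 ratio was -2.96, and 2 were called lower, among them Ccr2. Over all genes in that comparison, 7.16% lay 2-fold or more lower, 35.2% higher, and 0.514% were called lower. Ccr2, the receptor that brings cells out of bone marrow, had 9.25 and 9.52 CPM in MNK-3, 15.02 CPM in ILC2 and 472 CPM in NK (log2 fold change -5.65 ± 1.02 in MNK-3 over NK, limma voom adjusted p = 5.14e-05). Itga4, the alpha 4 integrin chain, had 73.3 and 92.8 CPM in MNK-3, 919 CPM in ILC2 and 2171 CPM in NK (limma voom adjusted p = 0.0512 against NK).

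In ILC2 over NK, 9 of the 12 lay 2-fold or more on the lower side and 1 on the higher side, around a median of -2.42. Over all genes, 15.6% lay lower and 15.2% higher by as much. None of the list was called by limma voom (0 of 12, with 4 at an unadjusted p under 0.05). By limma trend, 2 were called lower, among them Ccr2. Over all 25283 genes, 587 had an unadjusted p under 0.05, and limma trend called 134 as lower. Cx3cr1, a fractalkine receptor of mature NK cells, had 4.16 and 1.01 CPM in MNK-3, 0.264 CPM in ILC2 and 69.1 CPM in NK. Cxcr3 had 8.27 and 1.78 CPM in MNK-3, 0.527 CPM in ILC2 and 50.2 CPM in NK. Gpr183, an oxysterol receptor that positions lymphocytes, was the gene on the higher side, with 23.6 and 42.8 CPM in MNK-3, 83.9 CPM in ILC2 and 18.5 CPM in NK. Cxcr5, the B cell follicle receptor, was highest in MNK-3, with 38.6 and 61.0 CPM in MNK-3, 1.84 CPM in ILC2 and 4.99 CPM in NK. By limma trend, Cxcr5 was called higher in MNK-3 than in NK. In MNK-3 over ILC2 the 12 genes split, with 4 at least 2-fold higher, 3 lower and 0 called by limma voom, with 1 at an unadjusted p under 0.05 and 1, Cxcr5, called higher by limma trend. Over all genes, 40.1% were at least 2-fold higher there and 8.55% lower, so the list's higher side was near the share of all genes. In that comparison 905 of the 25283 genes had an unadjusted p under 0.05, and limma trend called 218 as higher.

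Tissue retention genes (10 genes) were split between the cell types. In MNK-3 over ILC2, 6 exceeded their ILC2 level 2-fold or more, against 40.1% of all genes. Another 2 lay under it by as much, against 8.55%. The list's median log2 ratio was 1.65 beside 0.78 over all genes. Leaving out MNK-3 replicate 1 gave a median of 0.907, and leaving out replicate 2 gave 1.496. None was called by limma voom (0 of 10, with 5 at an unadjusted p under 0.05). By limma trend, Rgs2 was called higher and Prdm1 lower. Over all 25283 genes there, 905 had an unadjusted p under 0.05, and limma trend called 218 higher and 193 lower. Nr4a1, the gene of the receptor NUR77, had 291 and 703 CPM in MNK-3, 42.4 CPM in ILC2 and 48.7 CPM in NK, with limma voom adjusted p of 0.118 for MNK-3 over ILC2 and 0.178 for MNK-3 over NK. Cxcr6, a receptor of tissue-resident cells, had 240.0 and 561 CPM in MNK-3, 184 CPM in ILC2 and 5.41 CPM in NK. Cd69, whose product pulls S1PR1 from the cell surface, had 60.9 and 146 CPM in MNK-3, 22.4 CPM in ILC2 and 43.5 CPM in NK. These 3 genes had their highest levels in MNK-3. Rgs1, which dampens signals of chemokine and S1P receptors, had its lowest level there, with 22.8 and 29.8 CPM in MNK-3, 187 CPM in ILC2 and 142 CPM in NK. Rgs2, a brake on G protein signals, had 53.4 and 95.6 CPM in MNK-3, 5.01 CPM in ILC2 and 111 CPM in NK, the same low point in ILC2 as Klf3. Prdm1, which encodes Blimp-1, was the gene of this list called lower in MNK-3 than in NK, with 20.2 and 7.43 CPM in MNK-3, 95.4 CPM in ILC2 and 155 CPM in NK (log2 fold change -3.53 ± 0.88, limma voom adjusted p = 0.0165). In MNK-3 over NK, 4 of the 10 lay 2-fold or more on the higher side and 3 on the lower side, against 35.2% and 7.16% of all genes. The list's median there was -0.28, and it was -0.999 without MNK-3 replicate 1 and 0.50 without replicate 2. In ILC2 over NK, 1 lay 2-fold or more on the higher side and 4 on the lower side, against 15.2% and 15.6% of all genes, around a median of -0.90. By limma trend, Cxcr6 was called higher and Prdm1 lower in MNK-3 over NK. In ILC2 over NK, limma trend called Cxcr6 higher and Rgs2 lower.

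Genes upstream of Klf2 (13 genes) were mostly within 2-fold between the cell types. FOXO1 drives Klf2 in T cells, and the kinases encoded by Map2k5 and Mapk7 act on it through MEF2 factors in endothelial cells. None of the 13 was called by limma voom in any comparison, and 0 to 2 had an unadjusted p under 0.05. Over all 25283 genes, 587 to 905 had such a p per comparison. By limma trend, 1 was called, Mef2c, which was higher in MNK-3 than in ILC2 and lower in ILC2 than in NK. In MNK-3 over NK, 11 were within 2-fold and 2 at least 2-fold lower, with a median log2 ratio of -0.02, and in ILC2 over NK 10 were within 2-fold and 3 lower, with a median of -0.12. Over all genes, 42.4% differed by 2-fold or more in MNK-3 over NK and 30.8% in ILC2 over NK. Most genes were thus within 2-fold in both comparisons. Foxo1 had 83.7 and 163 CPM in MNK-3, 70.1 CPM in ILC2 and 152 CPM in NK. Mef2c had 55.0 and 109 CPM in MNK-3, 5.53 CPM in ILC2 and 76.0 CPM in NK, and Mef2a had 68.5 and 107 CPM in MNK-3, 55.5 CPM in ILC2 and 227 CPM in NK. Mef2d had 45.6 and 56.5 CPM in MNK-3, 142 CPM in ILC2 and 154 CPM in NK. Mef2c, like Klf3 and Rgs2, was lowest in ILC2, whereas Mef2d was lowest in MNK-3. The part of these genes in the level of Klf2 was not tested.

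Among the other Klf genes (12 genes), 3 lay 2-fold or more under NK in MNK-3, 3 over it and 6 within 2-fold. Over all genes, 42.4% differed by 2-fold or more in that comparison, 7.16% lower and 35.2% higher. By limma voom 0 of the 12 were called in any comparison, with at most 2 at an unadjusted p under 0.05. Over all 25283 genes, 587 to 905 had such a p per comparison. Klf12 alone was called by limma trend, as lower in MNK-3 than in NK, where 229 of all genes were called lower. Klf12, a repressor, had 4.27 and 0.232 CPM in MNK-3, 8.96 CPM in ILC2 and 73.0 CPM in NK (limma voom adjusted p = 0.190 for MNK-3 over NK). Klf10, a TGF-beta induced factor, had 33.0 and 38.6 CPM in MNK-3, 22.4 CPM in ILC2 and 152 CPM in NK. Klf9 had 65.5 and 152 CPM in MNK-3, 34.7 CPM in ILC2 and 31.0 CPM in NK, and Klf8 had 5.74 and 4.72 CPM in MNK-3, 15.02 CPM in ILC2 and 3.12 CPM in NK. Klf9 and Klf8 thus had no peak in NK, unlike Klf2.

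Of the genes of S1P supply and the other receptors (15 genes), 13 were within 2-fold in MNK-3 over NK, 11 in ILC2 over NK and 8 in MNK-3 over ILC2. Over all genes, 42.4%, 30.8% and 48.7% differed by 2-fold or more in these comparisons, so most genes were within 2-fold too. By limma voom and by limma trend 0 of the 15 were called in any comparison, and 0 had an unadjusted p under 0.05 by limma voom. S1pr3, another S1P receptor, had 3.599 and 0.928 CPM in MNK-3, 14.5 CPM in ILC2 and 1.87 CPM in NK. Plpp3, which encodes a phosphatase that degrades extracellular S1P, had 19.8 and 32.7 CPM in MNK-3, 3.16 CPM in ILC2 and 2.91 CPM in NK. Sgpl1, the S1P lyase gene, had 78.6 and 128 CPM in MNK-3, 66.1 CPM in ILC2 and 119 CPM in NK, and Gna13, a G protein gene that couples to S1P receptors, had 128 and 276 CPM in MNK-3, 453 CPM in ILC2 and 163 CPM in NK.

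**Figure D5:**
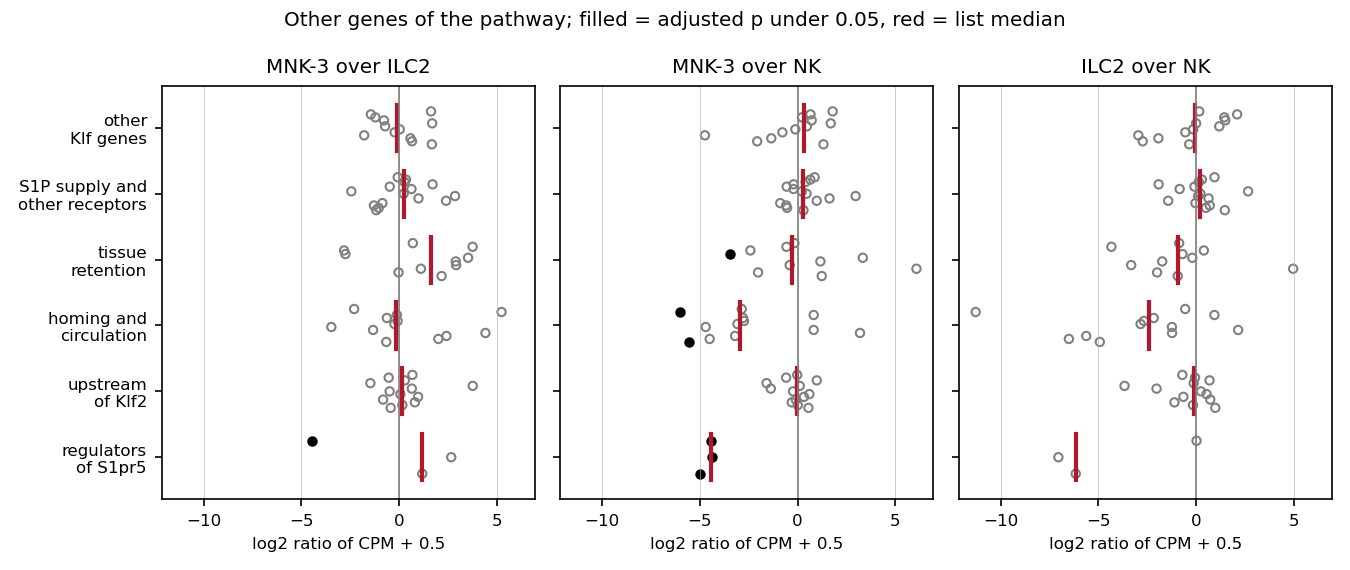
Log2 ratio of CPM + 0.5 of each gene in the 6 lists of related genes for MNK-3 over ILC2, MNK-3 over NK and ILC2 over NK, with red bars at list medians and filled points where the adjusted p was under 0.05. In MNK-3 over NK the homing and circulation median is -2.96 and that of the S1pr5 regulators -4.41, while the genes upstream of Klf2 centre on -0.02.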

How the data were processed

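RNA-seq libraries from total RNA (SMARTer Stranded Total RNA-seq v2 Pico, paired reads of 38 bases, Illumina NextSeq, RNA integrity above 9) were read as the authors' deposited whole-number read counts per gene, 1 column per library. STAR 2.7.8a, HTSeq and mm10 (GRCm38) are named in the submitters' processing notes. The gene set and the strand setting are not given in the sources used here, and the tables list 31053 genes for MNK-3 and 53465 for ILC2 and NK. The 30731 genes in all tables were used, and entries that name no gene (26.6% to 76.5% of reads in MNK-3, 25.9% in ILC2 and 49.3% in NK) were left out.

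Counts were scaled by TMM (trims of 30% and 5%) and filtered on the CPM that 10 reads give at the median depth, reached in any library, and on 15 reads in total. limma voom (limma 3.58.1, R 4.3.3) fitted all libraries as 3 groups with 1 residual degree of freedom. Its estimated prior degrees of freedom were infinite, so genes of like level share one spread. Two-sided p-values were Benjamini-Hochberg adjusted over all 25283 genes tested, and calls were made under 0.05. limma was used in place of a count model, since the format of the deposited tables kept their unit from being checked. Size ratios used CPM + 0.5, with the MNK-3 mean. Loci are from GENCODE M21 and promoters from RefSeq. Alternatives covered scaling, filter, depth, weights, libraries and pseudocount. Members and lists were chosen with earlier results of these data known. Every member is named, and of each list the called genes and those with the 3 largest ratios, given 10 CPM or more in the higher cell type, could be. Cd69, Rgs1, Gpr183, Klf1 and Klf17 were named after their values were seen. One gene of the homing and circulation list enters its counts and medians and is not reported here.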

Additional observations from a re-analysis of the deposited data

How the results depend on the processing

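The count of genes called in MNK-3 over ILC2 was 86 and became 828 with library totals, 54 with median-of-ratios factors, 259 after thinning to one depth, 244 with factors from abundant genes and 411 with limma trend. Members called there numbered 0, and 1 with library totals and 2 with limma trend. In MNK-3 over NK, 132 genes were called, and 810 with limma trend, 590 with library totals, 549 after thinning and 87 with factors from abundant genes; the 3 members called became 0 with factors from abundant genes. In ILC2 over NK, 0 genes were called, and 328 with library totals, 40 when abundant genes set the factors, 39 with no filter on low counts, 229 after thinning and 456 with limma trend; members called were 1 with library totals and 3 each after thinning and with limma trend. Calls in MNK-3 over NK were 2 higher and 130 lower, but 254 and 295 after thinning and 581 and 229 with limma trend. Calls in MNK-3 over ILC2 were 2 higher and 84 lower, but 228 and 600 with library totals, 218 and 193 with limma trend and 60 and 199 after thinning. With factors from abundant genes, 1 of the 86 and 1 of the 132 genes were still called. The cause of these shifts was not tested.

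Of 180 log2 fold changes of members under alternatives, 4 turned sign, all in MNK-3 over ILC2: Klf13 to 0.16 with library totals and 0.23 with factors from abundant genes, and Ccr7 to 0.46 and 0.48. Another 17 gained and 5 lost a call. Leaving out 1 MNK-3 library gave 5 to 6 members at 2-fold or more against ILC2 and 7 to 9 against NK. The median log2 fold change of all genes in MNK-3 over NK ran from 0.27 with limma trend to 0.61, so positive values there are read beside that shift. No paired analysis was possible because ILC2 and NK have 1 library each. With 9 reads of Ccr7 in NK and 10 of S1pr1 in MNK-3 replicate 2, depth limits those levels most.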

Other observations

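The genes whose levels over the 4 libraries lay nearest to those of Klf2, by Euclidean distance of centred log2(CPM + 0.5) among 6802 genes with at least 50 CPM in a library, were Gzmb (0.693), Mctp2 (0.868), Klra1 (0.902), Eomes (1.00) and Fos (1.06). Gzmb, the granzyme B gene, had 6.86 and 13.6 CPM in MNK-3, 5.80 CPM in ILC2 and 552 CPM in NK. Fos, an AP-1 subunit gene, had 7.79 and 9.21 CPM in MNK-3, 3.95 CPM in ILC2 and 241 CPM in NK. Klra1, which belongs to the Ly49 family of near-identical genes and is uncertain in counting, had 0.450 CPM and no reads in MNK-3, no reads in ILC2 and 75.1 CPM in NK. These genes share with Klf2 a level that is high in the NK library alone. Among the members, S1pr5 was the nearest to Klf2, in place 35 with a distance of 1.98, followed by Klf6 in place 238, S1pr1 in 272, S1pr4 in 299, Klf3 in 529 and Klf13 in 606. Klf4 was in place 5143. Distances over 4 libraries rest mostly on which library is high, and the MNK-3 pair counts as 2 of the 4 points.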
